A study of Mus musculus with 6 samples.

Results

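RNA-seq of the mouse prefrontal cortex (PFC) was examined for 9 genes of immediate mRNA-decay and growth-arrest responses: Zfp36, Zfp36l1 and Zfp36l2, Btg1, Btg2, Tob1 and Tob2, and Ier2 and Ier5. Each was taken from the count table by its gene symbol, and all 9 were found among 22000 symbols. The set was chosen by function and selected on earlier results of these counts, namely the ELS and control values of Zfp36 and its companions, so the differences between groups are given as a description and support nothing further. The libraries came from male C57BL/6N mice at 9 weeks of age, 3 control mice and 3 early life stress (ELS) mice, with 1 library per mouse and no genetic change or drug in either group. ELS was social isolation, in which a male was housed alone under a filter cap from weaning and kept in that housing until dissection, whereas control males shared a cage without the cap. Behavioral tests came before dissection, and mice of both groups were littermates. Single housing therefore lasted up to the day of tissue collection, and a lasting effect of the early period cannot be told apart from an effect of current housing. The PFC was taken as bulk tissue, so fewer cells of a type and less RNA per cell cannot be told apart either.

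Zfp36, also called tristetraprolin, and its relatives Zfp36l1 and Zfp36l2 are zinc finger proteins that bind AU-rich elements in the 3′UTR of short-lived mRNAs and recruit the CCR4-NOT deadenylase, after which the mRNA is degraded. Btg and Tob proteins share a conserved domain that contacts the catalytic subunits of the same deadenylase, and they are known as antiproliferative genes. Ier2 and Ier5 are nuclear proteins of immediate early genes. In neurons and in vascular and immune cells several of these genes are induced quickly and briefly by activity, growth factors or stress signals, through serum response factor and CREB at their promoters.

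Total counts ran from 28405795 to 35241743 per mouse, and the 3 ELS libraries were the deepest. Levels are given as CPM, the TMM-scaled read count relative to library size, and the scaling factors lay between 0.992 and 1.02. The test took genes that reached 1 CPM throughout the control or the ELS mice, which left 13185 genes with all 9 members among them. Neuron markers summed to between 8522 and 9068 CPM in every mouse, and choroid plexus markers to between 2.23 and 4.41 CPM. Markers of striatal neurons were also present, from 237 to 425 CPM, with control mouse 3 the highest and ELS mouse 1 next at 408 CPM. Of the 6 tested, 5 had a log2 fold change above 0 (median 0.175, none called). Control mouse 3 stood apart from the other controls, with a ratio of chi-square to its degrees of freedom of 21.4 and 20.1 against them. This ratio was 7.2 between control mice 1 and 2. Between ELS mice it ran from 6.7 to 13.6, the highest for ELS mice 1 and 2. Control mouse 3 had the highest oligodendrocyte marker sum (7922 CPM) and ELS mouse 1 the lowest astrocyte marker sum (5782 CPM). Without control mouse 3 the log2 fold changes were -0.81 for Zfp36, -0.31 for Ier2 (unadjusted p = 0.0517 in edgeR) and -0.19 for Ier5. None of the 9 genes was called in that fit, which called 29 of all genes.

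Zfp36 was lower in ELS mice, while the relatives Zfp36l1 and Zfp36l2 stayed within their spread. Zfp36 lies on chromosome 7 from 28376784 to 28380253 (minus strand, GRCm38). Control mice 1 to 3 had 3.96, 3.36 and 4.12 CPM of Zfp36, from 122, 95 and 118 reads. ELS mice 1 to 3 had 2.16, 1.94 and 2.17 CPM, from 72, 68 and 70 reads. Every ELS mouse was thus below every control mouse, and the ELS values lay close together. The log2 fold change was -0.87 (standard error 0.179, 95% interval -1.26 to -0.48), with means of 3.82 ± 0.399 CPM and 2.09 ± 0.127 CPM (SD, n = 3 each). This is a drop of the mean to a level 1.83-fold below control. Zfp36 had the lowest count of the 9 genes, and counting error alone was not small. The exact 95% Poisson interval was 2.72 to 4.11 CPM in control mouse 2, the lowest control, and 1.69 to 2.74 CPM in ELS mouse 3, the highest ELS mouse, so these intervals meet at their ends. They cover counting error only.

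Zfp36l1 (chromosome 12 from 80107754 to 80113013, minus strand) had 22.9, 18.9 and 21.5 CPM in control mice and 21.9, 21.3 and 24.8 CPM in ELS mice. The groups overlapped, and the log2 fold change was 0.10 (standard error 0.0959, 95% interval -0.10 to 0.31). A noncoding gene on the opposite strand covers 55.92% of the Zfp36l1 exons, and the strand setting of the counting is not given in the sources used here, so reads of the 2 genes may not have been separated. For Zfp36 and Zfp36l2 an antisense gene covers 3.602% and 2.975% of the exons. Zfp36l2 (chromosome 17 from 84183931 to 84187947, minus strand) had 24.1, 26.0 and 21.6 CPM in control mice and 22.8, 23.5 and 23.9 CPM in ELS mice, which overlapped as well. Its log2 fold change was -0.031 (standard error 0.0867, 95% interval -0.22 to 0.16).

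**Figure D1:**
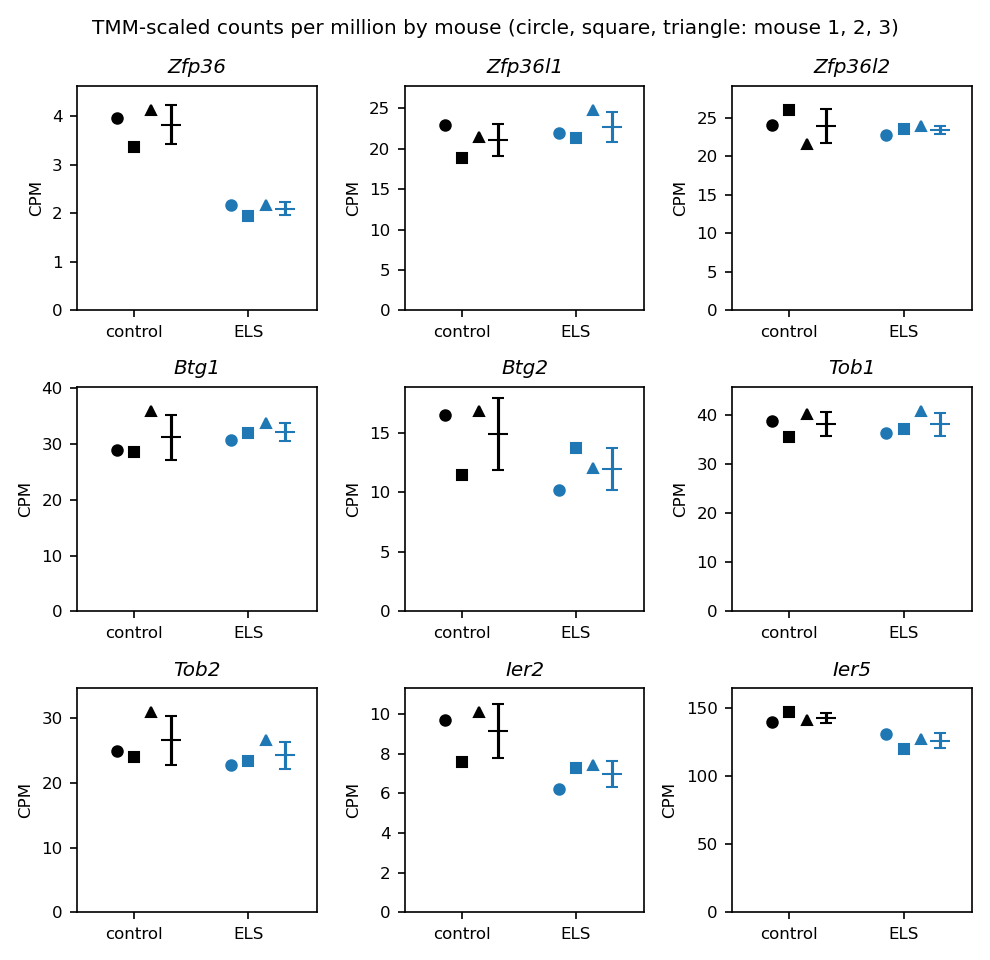
TMM-scaled CPM (vertical axes, from 0) of the 9 genes in 3 control mice (black) and 3 ELS mice (blue), with circle, square and triangle for mouse 1, 2 and 3 and the mean ± SD at the right of each group. Zfp36, Ier2 and Ier5 have every ELS mouse below every control mouse, and the other 6 genes overlap between groups.

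Among the Btg and Tob genes, Btg2 had the lowest ELS mean relative to control, but its groups overlapped. Btg2, an antiproliferative gene and p53 target that is also induced by neuronal activity, lies on chromosome 1 from 134075170 to 134079120 (minus strand). It had 16.5, 11.4 and 16.8 CPM in control mice and 10.2, 13.7 and 12 CPM in ELS mice. Control mouse 2 lay below 2 of the ELS mice. The log2 fold change of Btg2 was -0.32 (standard error 0.15, 95% interval -0.64 to 0.0093). Btg1, its closest relative (chromosome 10 from 96617006 to 96622809, plus strand), had 29.0, 28.6 and 35.9 CPM in control mice and 30.7, 31.9 and 33.8 CPM in ELS mice, a log2 fold change of 0.042 (standard error 0.0948, 95% interval -0.16 to 0.25). Control mouse 3 was the highest of the 6 for Btg1 and control mouse 2 the lowest, so the ELS mice fell inside the control range.

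Tob1 and Tob2 encode the larger proteins of the family, which also bind the poly(A)-binding protein. Tob1 (chromosome 11 from 94211454 to 94215495, plus strand) had 38.8, 35.6 and 40.3 CPM in control mice and 36.4, 37.3 and 40.9 CPM in ELS mice. Both group means were 38.2 CPM, and the 95% interval of the log2 fold change was -0.17 to 0.17. Tob2 (chromosome 15 from 81848272 to 81858796, minus strand) had 24.9, 23.9 and 30.9 CPM in control mice and 22.7, 23.3 and 26.6 CPM in ELS mice. The groups overlapped through ELS mouse 3, and the log2 fold change was -0.13 (standard error 0.106, 95% interval -0.36 to 0.10). An antisense gene covers 4.337% of the Tob2 exons. Mouse 3 was the highest of its own group for Tob1 and Tob2 in both groups.

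Both Ier genes were lower in every ELS mouse than in any control mouse. Ier2 lies on chromosome 8 from 84661331 to 84662852 (minus strand). It had 9.71, 7.58 and 10.1 CPM in control mice and 6.21, 7.26 and 7.44 CPM in ELS mice. The gap between the groups was narrow, with control mouse 2 just above ELS mouse 3, and the log2 fold change was -0.39 (standard error 0.138, 95% interval -0.69 to -0.088). Ier5, which is known to act with heat shock factor 1 and protein phosphatase 2A, lies on chromosome 1 from 155096361 to 155099636 (minus strand). Its values were 140, 147 and 141 CPM in control mice and 131, 120 and 127 CPM in ELS mice. The difference was small in size, a log2 fold change of -0.18 (standard error 0.0655, 95% interval -0.32 to -0.038), and the spread between mice was small too, with means of 143 ± 3.89 CPM and 126 ± 5.89 CPM (SD, n = 3 each).

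Control mouse 2 was the lowest control for 7 of the 9 genes, all but Zfp36l2 and Ier5. Relative to the control mean, on the log2 scale, it stood at -0.18 for Zfp36, -0.38 for Btg2 and -0.27 for Ier2, and between -0.16 and -0.10 for Zfp36l1, Btg1, Tob1 and Tob2. It stood at 0.12 for Zfp36l2 and 0.04 for Ier5. Without control mouse 2 the log2 fold changes of Zfp36, Btg2 and Ier2 were -0.95, -0.47 and -0.50, the lowest of the fits that left out a mouse.

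A gene was called where the Benjamini-Hochberg adjusted p was below 0.05 and the log2 fold change exceeded 0.3 in size. None of the 9 genes was called by edgeR's quasi-likelihood test, which called 0.0152% of all genes tested. The adjusted p of Zfp36 was 0.322 in edgeR, and that of each of the other 8 genes was 1 after rounding. DESeq2 called Zfp36 alone of the 9, at an adjusted p of 0.0499, with 0.137% of all genes called. The edgeR likelihood ratio test also called Zfp36 alone, at an adjusted p of 0.00284, with 0.212% of all genes called. None of the 9 was called by limma-voom, which called only 2 of all genes. Before adjustment, 3 of the 9 (Zfp36, Ier2 and Ier5) had p below 0.05 in the quasi-likelihood test, against 4.23% of all genes. Groups did not overlap, with ELS lower, in the same 3 genes, against 4.47% of all genes. As the genes were chosen with this contrast in view, nothing is read from these counts. The median log2 fold change was -0.134 over the 9 genes and -0.005 over all genes tested, and 9 of the 13185 genes had a log2 fold change as low as that of Zfp36 or lower, itself included.

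**Figure D2:**
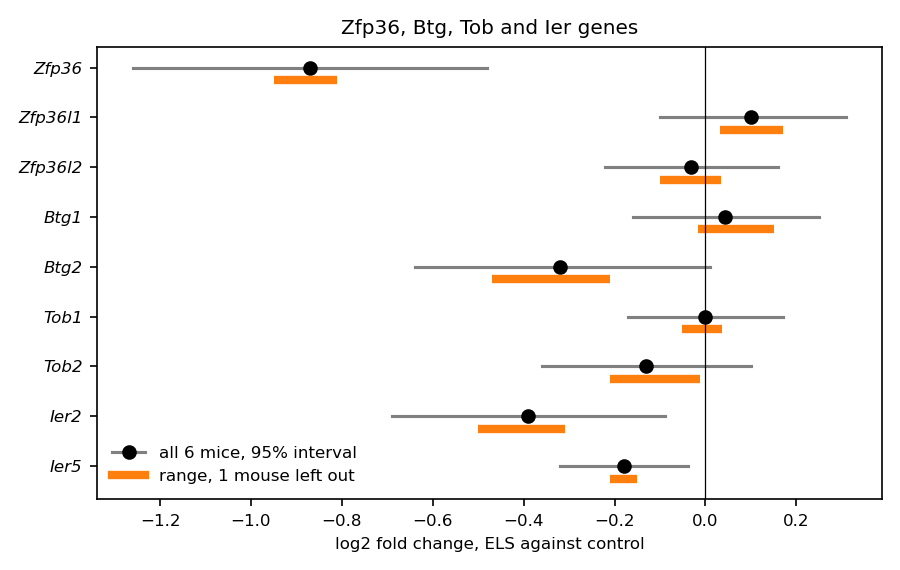
Log2 fold change of the 9 genes in ELS against control mice (horizontal axis), with black points and grey 95% intervals from edgeR's quasi-likelihood fit to 6 mice and orange bars for the range when 1 mouse at a time was left out. Zfp36 stands apart at -0.87 with a leave-one-out range of -0.95 to -0.81, and the bars of Zfp36l2, Btg1 and Tob1 cross 0.

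Levels of the 9 genes were compared with each other only per length, as CPM per kb of GENCODE exons. Ier5 had the highest level, at 43.6 ± 1.19 CPM per kb in control mice, followed by Tob1 at 16.7 ± 1.06 (SD, n = 3 each). Zfp36l1, Zfp36l2, Ier2, Btg1 and Btg2 followed at 7.05 ± 0.672, 6.77 ± 0.636, 5.99 ± 0.883, 5.91 ± 0.781 and 5.42 ± 1.1 CPM per kb in control mice, and neighbours among these 5 did not differ beyond their spread. Tob2 had 3.99 ± 0.572 CPM per kb, below Btg2 in mean but with overlapping mice. Zfp36 was the lowest of the 9 in every mouse, at 1.1 ± 0.115 CPM per kb in control and 0.603 ± 0.0367 CPM per kb in ELS mice. The GENCODE exons of Zfp36 reach further upstream than the RefSeq start of the gene, so its level per kb may be understated. In ELS mice Ier2 was at 4.58 ± 0.439 and Btg2 at 4.36 ± 0.639 CPM per kb, both below Btg1 at 6.09 ± 0.301 (SD, n = 3 each), whereas in control mice the 3 genes overlapped.

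**Figure D3:**
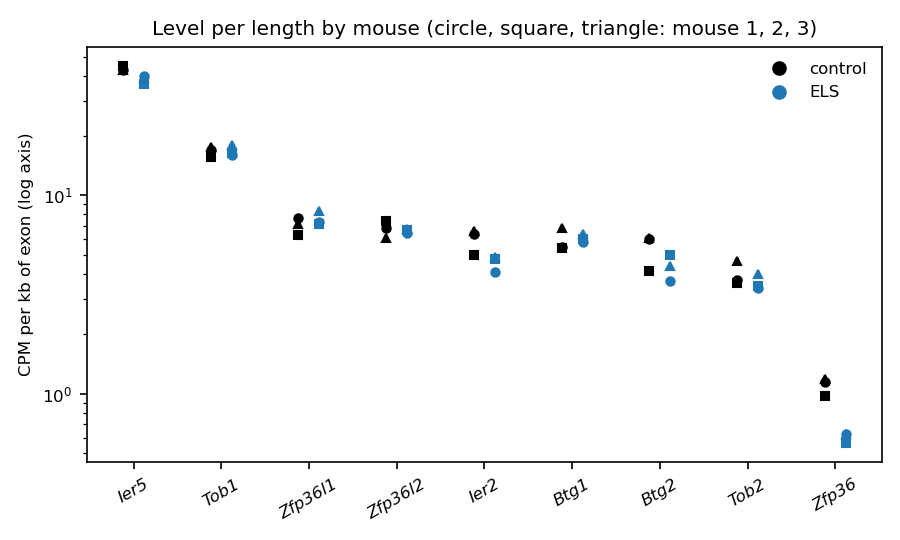
CPM per kb of exon (log axis) of the 9 genes in each control mouse (black) and ELS mouse (blue), ordered by the control mean. Ier5 lies highest near 43.6 in control mice and Zfp36 lowest near 1.1, with 7 genes between them.

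Promoter windows of 300 bases, from 250 before to 50 after the RefSeq start on GRCm38.p6, were found for 7 of the 9 genes, and Ier2 and Zfp36l2 had no entry. Both strands were searched for the CRE (TGACGTCA) bound by CREB and its shorter core TGACG, which the full site contains on both strands, for the EGR site GCGGGGGCG and for the CArG box bound by serum response factor. The Zfp36 window held a CArG box at position -58 relative to the start and an EGR site at position -105. These motifs were found in 1.63% and 2.91% of all 32851 promoter windows. The Btg2 window held a full CRE at position -166, found in 1.79% of all windows. The core was found in 3 of the 7 windows, those of Btg2 (within its full CRE), Btg1 (2 matches) and Tob1 (1 match), and in 20.8% of all windows. None of the 4 motifs was found in Zfp36l1, Tob2 or Ier5. A match describes the letters only, and binding was not measured. The windows of Zfp36 and Btg2 are shown because they hold the full motifs, that of Ier5 because its groups did not overlap and it holds none, and that of Zfp36l1 as the close relative of Zfp36 whose groups overlapped. Capitals mark the motif matches. The windows lie at chr7:28379179-28379478 (Zfp36), chr1:134079106-134079405 (Btg2), chr1:155099587-155099886 (Ier5) and chr12:80112964-80113263 (Zfp36l1).
Zfp36 promoter, minus strand: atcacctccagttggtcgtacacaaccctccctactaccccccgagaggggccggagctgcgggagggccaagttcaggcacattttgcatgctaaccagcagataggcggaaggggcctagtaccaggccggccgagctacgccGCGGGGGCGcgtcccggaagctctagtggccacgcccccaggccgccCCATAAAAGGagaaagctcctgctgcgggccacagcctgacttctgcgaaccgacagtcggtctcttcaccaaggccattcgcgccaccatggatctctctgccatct
Btg2 promoter, minus strand: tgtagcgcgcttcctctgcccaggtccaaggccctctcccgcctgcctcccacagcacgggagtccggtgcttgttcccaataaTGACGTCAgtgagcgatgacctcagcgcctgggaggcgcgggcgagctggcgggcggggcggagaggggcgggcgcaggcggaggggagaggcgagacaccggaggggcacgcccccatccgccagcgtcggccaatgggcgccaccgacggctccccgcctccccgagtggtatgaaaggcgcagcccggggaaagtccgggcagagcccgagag
Ier5 promoter, minus strand: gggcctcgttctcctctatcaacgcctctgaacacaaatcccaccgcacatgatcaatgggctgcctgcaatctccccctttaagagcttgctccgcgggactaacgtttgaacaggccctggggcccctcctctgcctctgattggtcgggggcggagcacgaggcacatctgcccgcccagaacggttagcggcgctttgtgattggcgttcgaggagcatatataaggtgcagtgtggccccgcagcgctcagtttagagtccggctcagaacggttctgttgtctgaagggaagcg
Zfp36l1 promoter, minus strand: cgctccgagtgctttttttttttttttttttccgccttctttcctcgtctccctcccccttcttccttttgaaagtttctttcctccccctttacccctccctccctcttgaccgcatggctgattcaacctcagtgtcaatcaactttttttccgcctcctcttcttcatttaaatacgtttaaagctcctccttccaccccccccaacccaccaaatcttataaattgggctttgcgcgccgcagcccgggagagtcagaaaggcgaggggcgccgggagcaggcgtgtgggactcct

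The mRNAs of the Zfp36 family carry the element that their proteins bind. The core heptamer of the AU-rich element, TATTTAT in DNA letters, was counted in the longest annotated 3′UTR of each gene on the mRNA strand. Zfp36 had 3 heptamers in 777 bases, of which 1 lies in the full nonamer TTATTTATT. Zfp36l1 had 3 heptamers with 1 nonamer in 1838 bases, and Zfp36l2 had 3 with 1 nonamer in 1825 bases. Btg2 and Tob2 had 1 heptamer each, in 2202 and 2460 bases, and Btg1, Tob1, Ier2 and Ier5 had none. At least 1 heptamer was present in 31.7% of the 12571 genes tested that have an annotated 3′UTR, 3 or more in 4.47%, and at least 1 nonamer in 8.51%. Zfp36, Zfp36l1 and Zfp36l2, with 3 heptamers each in 3′UTRs of unlike length, had log2 fold changes of -0.87, 0.10 and -0.031. Any part of the heptamers in these values was not tested. The sites of Zfp36 are shown because they lie within a short stretch of its 3′UTR, with the single site of Btg2 and the nonamer site of Zfp36l1 for comparison. Capitals mark the heptamer.
Zfp36 3′UTR site, minus strand, chr7:28376966-28376994: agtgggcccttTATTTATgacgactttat
Zfp36 3′UTR site, minus strand, chr7:28376951-28376979: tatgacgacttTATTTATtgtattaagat
Zfp36 3′UTR site, minus strand, chr7:28376926-28376954: agattttatagTATTTATatatattgggt
Btg2 3′UTR site, minus strand, chr1:134077249-134077277: aaatgaagagcTATTTATacatgtttttt
Zfp36l1 3′UTR site, minus strand, chr12:80108167-80108195: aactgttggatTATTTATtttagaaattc

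Over all genes the values of those with and without the heptamer were set side by side, with no test. The median log2 fold change was -0.0046 for the 8590 genes with no heptamer, -0.0055 for the 3419 with 1 or 2 and -0.0026 for the 562 with 3 or more, against -0.0047 over the 12571. It was -0.0102 for the 1070 genes with a nonamer. The groups differ in 3′UTR length, with medians of 929, 2101 and 3392 bases from no heptamer to 3 or more. No gene with 3 or more heptamers was called in edgeR's quasi-likelihood test, which called only 2 of the 12571. Of the genes with 3 or more, 5.87% had an unadjusted p under 0.05 (15 lower and 18 higher in ELS mice). For genes with a nonamer this share was 5.42% (38 lower and 20 higher), and for all 12571 genes it was 4.26% (294 lower and 241 higher).

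Genes that work with the 9 were taken from lists written by role. Of 84 such genes, 70 were tested and none was called by edgeR's quasi-likelihood test in either direction. At an unadjusted p under 0.05 there were 4, all lower in ELS mice, which is 5.71% of the 70 against 4.23% of all genes tested. DESeq2, the likelihood ratio test and limma-voom called none of the 70 either. The 4 genes were Ptgs2, which was named by role, and Cnot10, Edc3 and Plk3, which were named after their values were seen.

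The CCR4-NOT complex, which shortens poly(A) tails, had 12 of 12 subunits tested, with log2 fold changes from -0.16 to 0.10 and a median of -0.032. Its scaffold Cnot1 had 104 ± 9.09 CPM in control and 97.6 ± 5.52 CPM in ELS mice (n = 3 per group, SD), and the log2 fold change was -0.10 with a 95% interval of -0.26 to 0.073. The deadenylases that Btg and Tob proteins contact, Cnot7 and Cnot8, had log2 fold changes of 0.054 (95% interval -0.10 to 0.20) and -0.057 (95% interval -0.24 to 0.13). The second pair of deadenylases, Cnot6 and Cnot6l, stood at 0.064 and -0.023. Cnot10, a subunit that binds the scaffold with Cnot11, had 51.5 ± 1.32 CPM in control and 46.0 ± 1.87 CPM in ELS mice (n = 3 per group, SD), with no overlap between groups. Its log2 fold change was -0.16 with an adjusted p of 1 in edgeR after rounding.

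For the steps after deadenylation, 15 of 15 genes were tested, with a median log2 fold change of -0.024. Pabpc1, the poly(A)-binding protein, was at 197 ± 2.88 and 209 ± 10.4 CPM in control and ELS mice (n = 3 per group, SD), and the log2 fold change was 0.084. The decapping enzyme Dcp2 had -0.089 and the exonuclease Xrn1 0.057, with 95% intervals of -0.33 to 0.15 and -0.14 to 0.25. Edc3, an enhancer of decapping, had 29.4 ± 0.478 and 25.9 ± 1.77 CPM (n = 3 per group, SD), and the log2 fold change was -0.18, which did not pass adjustment.

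Other proteins that bind AU-rich elements had 13 of 14 genes tested, with log2 fold changes from -0.083 to 0.11. Elavl1, which stabilises such mRNAs, stood at -0.013 (95% interval -0.17 to 0.15), and its neuronal relative Elavl4 at 0.11 (95% interval -0.023 to 0.25), with each ELS mouse above each control mouse. Hnrnpd and Khsrp, which promote decay, stood at 0.0035 and -0.028. Zc3h12a, an endonuclease of inflammatory mRNAs, had from 12 to 28 reads per mouse and was not tested. The list of kinases, phosphatase subunits and 14-3-3 proteins that act on Zfp36 had no call among 12 genes. Mapkapk2, which phosphorylates Zfp36 downstream of p38, had a log2 fold change of -0.086 (95% interval -0.25 to 0.076), p38α itself (Mapk14) had -0.055, and the phosphatase subunit Ppp2ca had 0.0072.

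Transcripts known as targets of Zfp36 were mostly too low for a test in this tissue, as 9 of 20 were tested. Tnf, the best known target, had 0 to 2 reads per mouse. Ptgs2, the inducible cyclooxygenase that cortical neurons also express, had 19.7, 15.9 and 15.8 CPM in control mice and 15.8, 13.2 and 11.8 CPM in ELS mice, with ELS mouse 1 level with the lower control mice. The log2 fold change of Ptgs2 was -0.33 (standard error 0.124) and did not pass adjustment. Plk3, a stress-response kinase, had 16.8 ± 2.73 CPM in control and 13.8 ± 1.06 CPM in ELS mice (n = 3 per group, SD), and the log2 fold change was -0.29. Plk2 and Vegfa stood at -0.10 and 0.038. The 9 tested targets had a median log2 fold change of -0.097, with 7 below 0 and 2 above, Vegfa and Ier3.

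Relatives of the 9 that were tested all had log2 fold changes above 0, and none was called. Ier3 had 8.51, 8.04 and 7.65 CPM in control mice and 9.18, 8.70 and 10.3 CPM in ELS mice, with each ELS mouse higher, and a log2 fold change of 0.22 (95% interval -0.034 to 0.47). Ier5l stood at 0.16 (95% interval -0.054 to 0.37) and Btg3 at 0.084 (95% interval -0.34 to 0.51). Btg4 and Zfp36l3, known from oocytes and placenta, had at most 1 read in any mouse. Serum response factor and its partners gave no call among 7 genes, with Srf at -0.051, the ternary complex factor Elk1 at 0.11 and the cofactors Mrtfa and Mrtfb at -0.028 and -0.081.

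**Figure D4:**
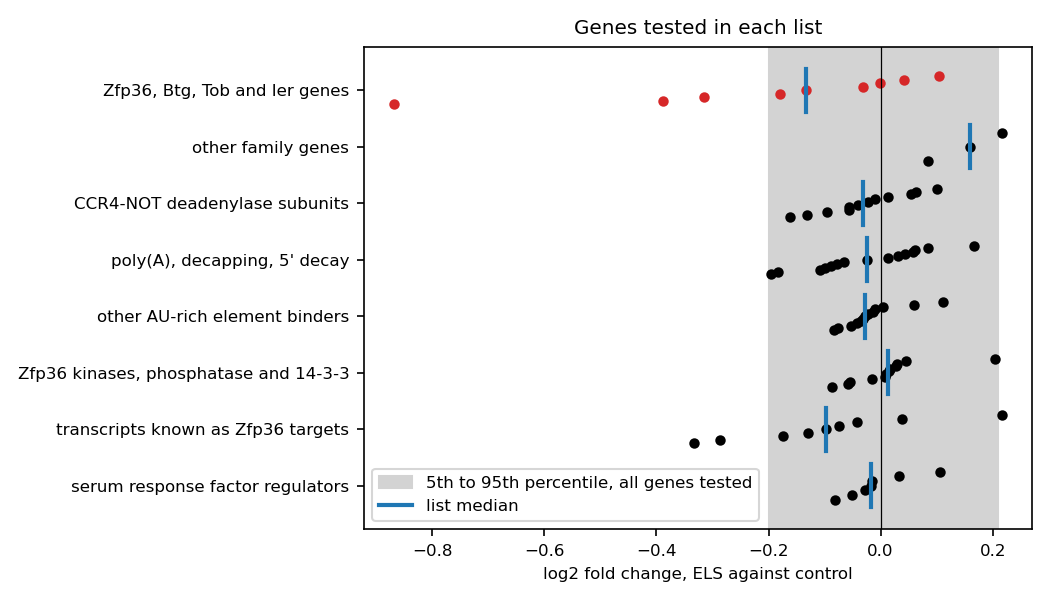
Log2 fold change, ELS against control mice (horizontal axis), of each tested gene in 8 lists, with blue bars at the list medians and a grey band from the 5th (-0.20) to the 95th (0.21) percentile of all genes tested. Zfp36 at -0.87, Ier2 at -0.39 and Btg2 at -0.32 lie below the band, as do Ptgs2 and Plk3 among the Zfp36 targets, whereas Ier3 (in 2 of the lists) lies just above it at 0.22 and the 12 CCR4-NOT subunits lie inside it.

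The genes most like Zfp36 over the 6 mice, by Pearson correlation of log2(CPM + 1) among the genes tested, were Cys1 (r = 0.980), Ulk4 (0.978), Mogs (0.975), Gpt2 (0.975) and Fbxl2 (0.970). All 5 had every ELS mouse below every control mouse, so they share the difference between the groups with Zfp36, and with 6 mice measured in the same libraries the likeness is given as a description. Cys1, a gene of the primary cilium, had 14.7, 11.9 and 14.2 CPM in control mice and 9.96, 8.58 and 9.80 CPM in ELS mice, with mouse 2 lowest in each group as for Zfp36. The log2 fold changes of the 5 ran from -0.53 for Cys1 to -0.077 for Mogs.

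Summed markers of the cells in which these genes are often induced overlapped between the groups. Endothelial markers (8 of 8 measured) summed to between 210 and 238 CPM in control and between 215 and 258 CPM in ELS mice, and pericyte and smooth muscle markers (7 of 7) to between 293 and 314 and between 300 and 335 CPM. None of these genes was called. At an unadjusted p under 0.05, 1 of the 8 endothelial markers (12.5%) and 2 of the 7 pericyte and smooth muscle markers (28.6%) were higher in ELS mice, against 4.23% of all genes in either direction. These were Cldn5, Pdgfrb and Kcnj8, named after their values were seen, with log2 fold changes of 0.31, 0.28 and 0.37. In 2 of the 7 pericyte and smooth muscle markers every ELS mouse was above every control mouse, against 3.81% of all genes. Microglia markers (7 of 8 measured) summed to between 336 and 360 CPM in control and between 347 and 369 CPM in ELS mice. Astrocyte, oligodendrocyte and neuron markers overlapped as well, and blood markers ran from 51.0 to 85.2 and from 52.6 to 79.7 CPM. No marker was at 0 in all mice. The median log2 fold change was 0.116 for the endothelial and 0.135 for the pericyte and smooth muscle markers, and their part in the values of the 9 genes was not tested.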

How the data were processed

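PFC RNA of 3 control and 3 ELS mice was sequenced as stranded, paired-end mRNA libraries. Trimmomatic was used by the authors for trimming. They aligned to mm10 with STAR and counted uniquely mapped reads with HTSeq, and they deposited raw counts per gene symbol, neither normalized nor pooled. The submitters' processing notes name STAR 2.7.1a and HTSeq 0.9.1. The paper names an older STAR release and another library kit than the labels. Annotation release and strand setting are not given in the sources used here. ELS columns carry the abbreviation of social isolation and were matched by that term and the mouse number.

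The tools were edgeR 4.0.16, DESeq2 1.42.0 and limma 3.58.1 under R 4.3.3. A gene entered the test when all control or all ELS mice reached 1 CPM, as for 13185 genes. With TMM factors, edgeR's quasi-likelihood model was fitted on condition alone, and p-values were adjusted by Benjamini-Hochberg over these genes. Standard errors were taken from the F statistic. The fit was tested on simulated data. Pairs of mice of a group differed by more than sampling noise (ratio of chi-square to its degrees of freedom 6.7 to 21.4). Control and ELS mice were littermates, and the litter and cage of each are not given. Control males shared cages, so the control mice may have been cage mates. The p-values measure the spread between these mice, and an effect of a shared cage cannot be told apart from ELS. Of the 9 genes, Zfp36 had the fewest reads and so the largest counting error.

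Gene positions are from GENCODE M21 on GRCm38, which held 89.2% of the symbols. Promoters came from RefSeq on GRCm38.p6 and 3′UTRs from GENCODE M21. The 9 members, gene lists and tests were chosen with earlier results of these data known. Named are the 9 members, other genes of their families, genes marked by role in each list, and the 5 genes most like Zfp36. Cnot10, Edc3, Plk3, Cldn5, Pdgfrb and Kcnj8 fall outside this rule and were named for their p-values. The motif counts and the 3′UTR grouping were chosen after the values were seen. Alternatives were DESeq2, the likelihood ratio test, limma-voom, DESeq2 size factors, upper-quartile factors, no filter, filterByExpr, a block on the mouse number and each mouse left out in turn.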

Additional observations from a re-analysis of the deposited data

How the results depend on the processing

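Zfp36 kept its direction in all 14 alternatives (log2 fold change -0.95 to -0.81) and passed both thresholds in 2 of them, DESeq2 and the edgeR likelihood ratio test, each with 1 of the 9 genes called. Its adjusted p ran from 0.00284 to 0.999 over the alternatives. No other member was called in any of them. Of all genes, 2 were called by the quasi-likelihood test, 18 by DESeq2, 28 by the likelihood ratio test, 4 with no filter beyond 1 read, 7 with the replicate block, and 1 to 29 when a mouse was left out, the 29 without control mouse 3 and 1 without any other mouse. No pathway gene was called in any alternative. With the replicate block, 0 of the 9 genes were called. Deviations of same-numbered mice correlated at -0.123, 0.213 and -0.0312, so the numbers were not taken as pairs. The cause of these shifts in count was not tested.

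The log2 fold changes of 3 members and of several related genes changed sign. Tob1 turned positive with DESeq2 (0.00060), DESeq2 size factors (0.00061), upper-quartile factors (0.0098) and no filter (0.0012). With a mouse left out, log2 fold changes ran from -0.052 to 0.036 for Tob1, -0.10 to 0.035 for Zfp36l2 and -0.016 to 0.15 for Btg1. Among related genes they ran from -0.094 to 0.29 for Btg3, -0.091 to 0.057 for Cnot6l, -0.13 to 0.018 for Cnot8, -0.22 to 0.0037 for Dcp2, -0.024 to 0.12 for Xrn1, -0.069 to 0.041 for Elavl1, -0.059 to 0.074 for Hnrnpd, -0.11 to 0.055 for Khsrp, -0.019 to 0.059 for Ppp2ca, -0.036 to 0.18 for Vegfa and -0.075 to 0.060 for Mrtfa. With the sign kept, leaving out a mouse moved further values by over 1.5 times. Tob2 (-0.13) ran from -0.21 without ELS mouse 3 to -0.013 without control mouse 3, and Zfp36l1 (0.10) from 0.033 without control mouse 2 to 0.17 without control mouse 1. Among related genes the ranges were -0.15 to -0.022 for Cnot1, 0.022 to 0.12 for Cnot6, 0.010 to 0.10 for Cnot7, 0.045 to 0.16 for Elk1, 0.095 to 0.25 for Ier5l, -0.10 to -0.028 for Mapk14, -0.13 to -0.055 for Mapkapk2, -0.14 to -0.012 for Mrtfb, -0.14 to -0.049 for Plk2, -0.46 to -0.22 for Ptgs2 (unadjusted p = 0.112 without control mouse 1) and -0.073 to -0.026 for Srf. Btg2 ran from -0.47 without control mouse 2 to -0.21 without ELS mouse 1, Ier2 from -0.50 to -0.31 and Ier5 from -0.21 to -0.15. In edgeR the unadjusted p of Ier2 was 0.0557, 0.0517 and 0.061 without control mouse 1, control mouse 3 and ELS mouse 1. That of Ier5 was 0.0611 and 0.0883 without control mouse 2 and ELS mouse 2. Both stayed under 0.05 without any other mouse. Btg2 had 0.0559 in the quasi-likelihood test, 0.0439 in DESeq2 and 0.0423 in the likelihood ratio test. Since the groups of Zfp36, Ier2 and Ier5 did not overlap, leaving out a mouse could not turn their direction. Depth limits Zfp36 the most, with 68 to 122 reads per mouse.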
